A study of Rattus norvegicus with 21 samples.

Results

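The genes of the mitochondrial respiratory chain were followed across 7 groups of rat forebrain astrocytes, 89 of the 14217 genes that the arrays measured. They were taken by symbol: the Nduf, Uqcr, Cox4 to Cox8 and Atp5 families, the 4 Sdh genes, Cyc1, and the regulators Ppargc1a and Tfam. Each gene was read through 1 probe set, the brightest on average over the 21 arrays among those that carry its symbol alone. No probe set carried Cycs, the gene of cytochrome c, as its single symbol. Sorted by symbol, the set held 36 complex I genes, 6 complex I assembly factors, 4 complex II, 8 complex III, 17 complex IV and 16 complex V genes, and the 2 regulators. Every Nduf gene not named as an assembly factor was counted under complex I, Ndufa4 and Ndufa4l2 included. That is a count by name and not by the complex in which the protein sits. One complex IV entry, Cox6c-ps1, is named as a pseudogene.

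The cells came from Sprague Dawley rats, with 3 biological replicates in each group. Withdrawn P7 cultures were astrocytes of postnatal day 7 (P7), isolated by immunopanning on the integrin ITGB5, that spent 7 days in medium with 10% foetal calf serum, were washed, and then spent 7 more days with the growth factor HBEGF, at a dose that their labels do not give. Serum P7 cultures were panned P7 cells kept 7 days in that serum medium. MD cultures, named for McCarthy and de Vellis, started from day 1 (P1) forebrain and were harvested after 7 days in 10% foetal calf serum. HBEGF P7 and HBEGF P1 cultures were panned cells kept 7 days with HBEGF at 5 ng/ml, and fresh P7 and fresh P1 cells were panned and lysed at once. One characteristics label of the HBEGF P7 cultures reads p1, while their title and source name read P7, which was followed here. The panned groups had passed a surface selection that the MD cultures had not, so method and medium cannot be told apart between MD and panned cultures. Whether a replicate was 1 animal, 1 litter or 1 pool is not stated.

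The respiratory chain sits in the inner mitochondrial membrane. Complexes I and II feed electrons from NADH and succinate to ubiquinone, complex III passes them to cytochrome c, and complex IV passes them to oxygen. Proton pumping by complexes I, III and IV drives ATP synthesis by complex V. Most subunits are encoded in the nucleus, and astrocytes use this machinery beside a high rate of glycolysis.

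Values are log2 of the deposited intensities, so a difference of 1 is a doubling. A gene was called higher or lower where limma's p, adjusted by the Benjamini-Hochberg method over all probe sets, was under 0.05, at any size of change. Numbers at an unadjusted p are description only, since the share of all genes at that limit was not counted. Errors given with a change are standard errors of the fit, and group values are mean ± SD over 3 arrays. Levels were compared only within a probe set. Mean levels were at least 12 for 63 of the 89 genes and under 7 for 5, namely Cox4i2, Cox6a2, Cox7b2, Cox8b and Ndufa4l2. The median of all values was 7.11, so for those 5 a signal from the transcript cannot be told from background.

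Arrays of 1 group correlated at 0.963 to 0.994 (Spearman), and no 2 arrays held identical values. Astrocyte markers had a mean level of 11.77 to 12.03 on the MD arrays and 12.55 to 13.53 on all others. In all 5 fresh, HBEGF and MD groups, the replicate 2 array had the lowest mean over the 89 genes and the replicate 1 array the highest. As deviation from each gene's own mean over the 21 arrays, the 3 replicates in order stood at 0.11, -0.24 and -0.06 in MD, 0.33, -0.01 and 0.21 in HBEGF P7, 0.32, -0.10 and 0.16 in HBEGF P1, -0.10, -0.47 and -0.26 in fresh P7, and -0.08, -0.23 and -0.10 in fresh P1. The serum P7 and withdrawn P7 arrays lay between 0.04 and 0.16 with no such order. The 89 genes thus shifted together between arrays, so numbers of positive or negative changes do not count independent genes. The 73 mitochondrial ribosome genes also stood lowest on the replicate 2 arrays of those 5 groups, at 0.09 in MD and -0.74 in fresh P7. Counts of called genes are therefore given with and without these 5 replicate 2 arrays where leaving them out moved the count. Of 84 calls of named genes, 15 were lost without them. The part of RNA quality or batch in this pattern was not tested.

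Across the groups, most of these genes were at their lowest in fresh P7 cells. The lowest of the 7 group means fell in fresh P7 cells for 60 of 89 genes (67.4%), against 22.4% of all genes. It fell in fresh P1 cells for 7 (7.87%), against 14.8% of all genes, so this was a trait of the fresh P7 group. Both fresh groups together held it for 67 (75.3%), against 37.2% of all genes. These shares use all 3 arrays of each group and are not split by level. On the fresh P7 arrays the 760 other genes with a mean level of at least 12 also stood below their own means, at -0.059, -0.124 and -0.032. The 89 genes stood at -0.102, -0.472 and -0.26. The highest mean fell in HBEGF P7 cultures for 31 (34.8%), against 6.29% of all genes. Ppargc1a had the widest range of group means, 4.39, followed by Ndufaf1 (1.95), Cox6b2 (1.68), Ndufaf4 (1.64) and Atp5if1 (1.63). The narrowest ranges belonged to Cox7b2 (0.22), Atp5mc3, Ndufa5 and Ndufs4 (0.23 each) and Uqcrfs1 (0.27).

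**Figure D1:**
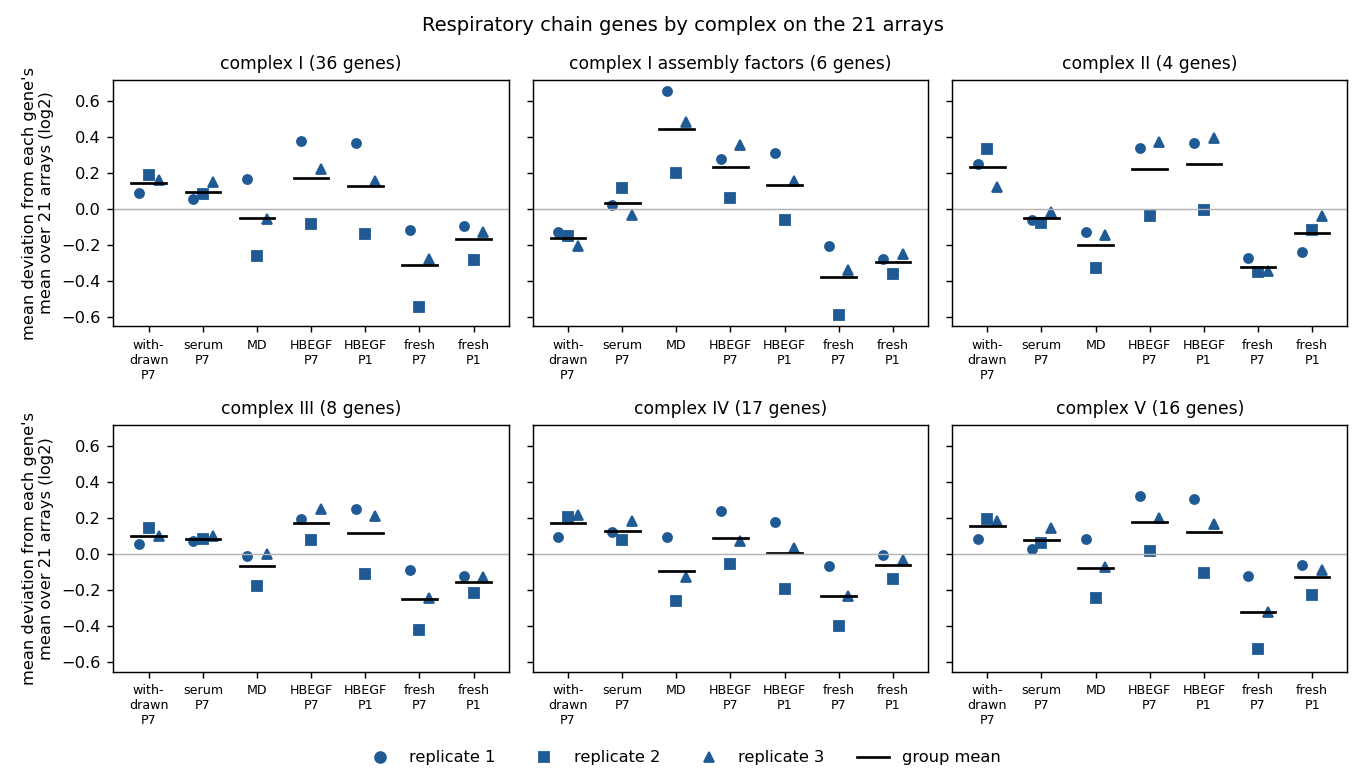
Mean deviation of the genes of each complex from their own means over 21 arrays (log2, y axis) on every array (points, shaped by replicate number) of the 7 groups (x axis), with group means as bars. Fresh P7 cells lie lowest for each complex, and the replicate 2 arrays lie low in most groups that were not in the serum experiment.

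**Figure D2:**
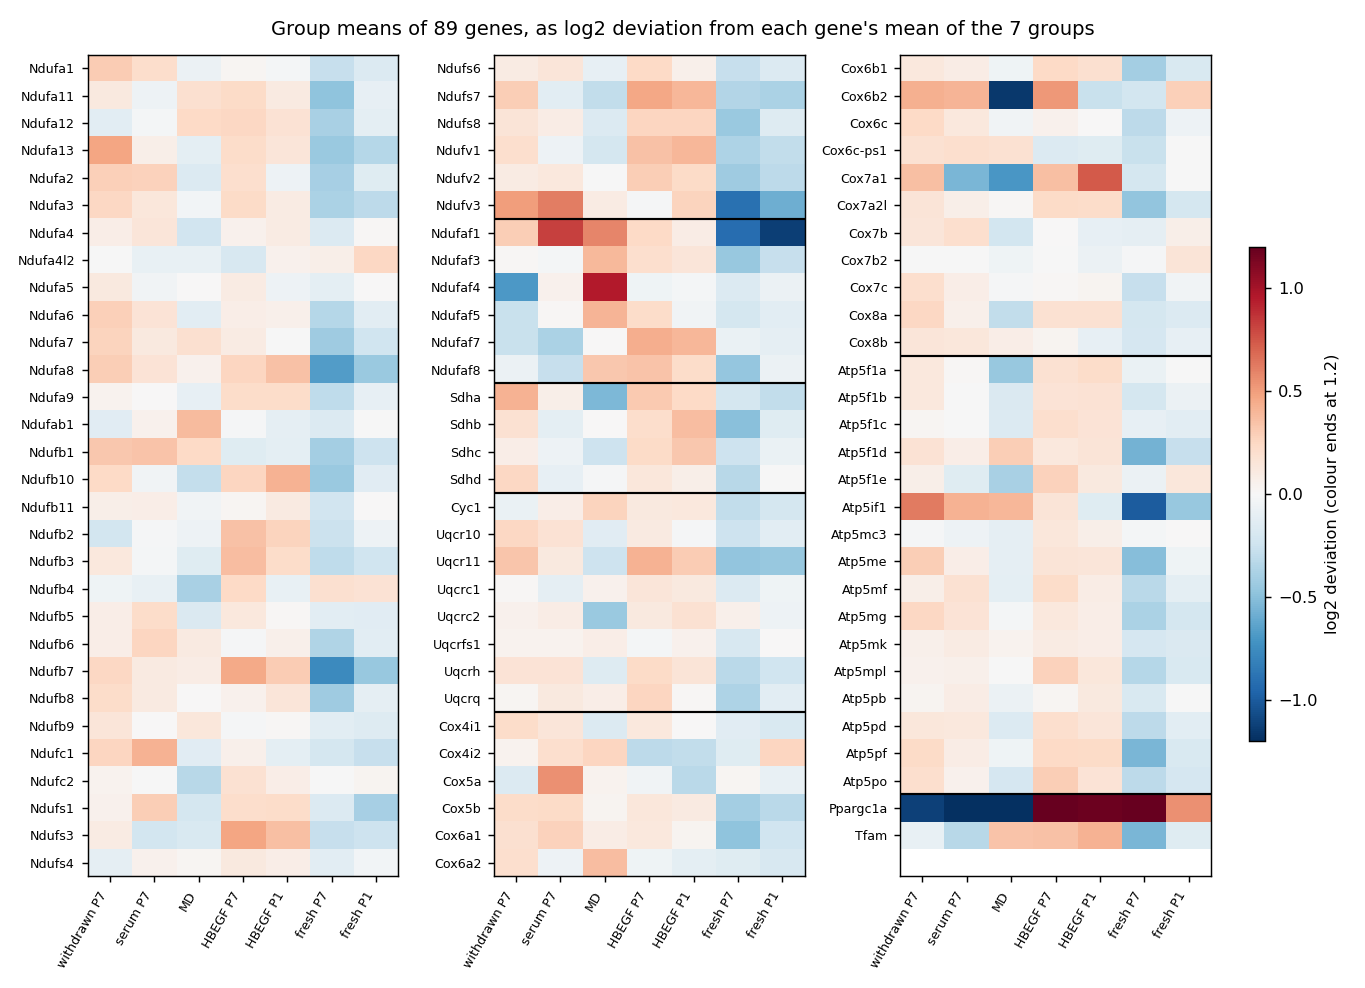
Group means of the 89 genes as log2 deviation from each gene's mean of the 7 groups (colour, ending at 1.2 in both directions), with groups as columns and black lines between complexes. The 2 fresh columns at the right are mostly blue, and the Ppargc1a row changes colour between the serum-exposed and the other groups.

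Ppargc1a, the gene of the coactivator PGC-1alpha that drives mitochondrial biogenesis, was the most variable of the 89 and followed exposure to serum. Its log2 intensity was 7.37, 7.28 and 5.97 in withdrawn P7 cultures, 6.98, 7.23 and 6.003 in serum P7 cultures, and 5.38, 5.45 and 5.44 in MD cultures. It was 9.88, 10.12 and 8.13 in HBEGF P7 cultures, 9.49, 9.40 and 8.60 in HBEGF P1 cultures, 9.83, 9.85 and 9.74 in fresh P7 cells, and 8.93, 8.37 and 8.33 in fresh P1 cells. All 9 arrays of cells that had been in serum lay below all 12 others. The replicate 3 array was the lowest of its group in every group but MD.

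Ppargc1a was lower in MD than in HBEGF P1 cultures (log2 change -3.74 ± 0.46 SE, limma adjusted p = 6.7e-06) and lower in MD cultures than in fresh P1 cells (-3.12 ± 0.46, adjusted p = 3.68e-05). It was lower in serum P7 than in HBEGF P7 cultures (-2.64 ± 0.46, limma adjusted p = 0.000626), and lower in withdrawn P7 than in HBEGF P7 cultures (-2.51 ± 0.46, limma adjusted p = 0.000948). The means of the MD, serum P7 and withdrawn P7 cultures lay under the median of all values, so these are differences between measured signals, of which the lower one cannot be told from background, and no fold is given. Withdrawn and serum P7 cultures differed by 0.14 ± 0.46 (adjusted p = 0.932), less than the spread within either group. Each of the 4 falls remained called when any 1 of the 6 arrays of the 2 groups compared was left out. Between HBEGF cultures and fresh cells the change was -0.43 ± 0.46 at P7 and 0.62 ± 0.46 at P1, and neither was called (limma adjusted p = 0.572 and 0.413).

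Markers of fibroblasts and meninges (8 of 8 measured) differed between several of these groups. Of the 8, 6 rose and 0 fell in serum P7 and in withdrawn P7 against HBEGF P7 cultures, while 3 rose and 5 fell in MD against HBEGF P1 cultures. Their summed intensity was 58890 to 84020 in withdrawn P7, 66330 to 94690 in serum P7, 14200 to 17790 in MD, 10340 to 35310 in HBEGF P7 and 7370 to 8837 in HBEGF P1 cultures. On the same scale it was 7818 to 15250 in fresh P7 and 4235 to 9885 in fresh P1 cells. The mean log2 level of the 8 markers ordered the groups otherwise. It was 8.31 to 8.85 in MD, below the 9.59 to 9.87 of HBEGF P1 and the 9.72 to 11.8 of HBEGF P7 cultures. Withdrawn P7 cultures had 12.56 to 12.87 and serum P7 cultures 12.55 to 13.14. Array intensities have no 0, the lowest in the table being 10.02, and the part of these cells in the results was not tested. In bulk samples such as these, fewer cells of a type and less RNA per cell cannot be told apart.

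Tfam, whose protein packages mitochondrial DNA and acts in its transcription, moved differently from Ppargc1a. It was at 10.89, 10.89 and 10.68 in withdrawn P7 cultures, 10.58, 10.61 and 10.55 in serum P7 cultures and 11.05, 11.29 and 11.41 in MD cultures. The HBEGF P7 cultures had 11.14, 11.23 and 11.42 and the HBEGF P1 cultures 11.14, 11.38 and 11.47, while fresh P7 cells had 10.40, 10.21 and 10.48 and fresh P1 cells 10.61, 10.77 and 10.90. Tfam was therefore high in MD cultures, where Ppargc1a was lowest, and low in fresh P7 cells, where Ppargc1a was highest. It rose by 0.90 ± 0.12 in HBEGF P7 cultures over fresh P7 cells (limma adjusted p = 5.15e-05), by 0.57 ± 0.12 in HBEGF P1 cultures over fresh P1 cells (adjusted p = 0.00315) and by 0.49 ± 0.12 in MD cultures over fresh P1 cells (adjusted p = 0.00462). It fell by 0.68 in serum P7 against HBEGF P7 cultures (SE 0.12, limma adjusted p = 0.000939). The change in withdrawn P7 against HBEGF P7 cultures was -0.44 ± 0.12 (limma adjusted p = 0.0156). That last call ended when either of 2 arrays was left out (adjusted p up to 0.073). Without the 5 replicate 2 arrays the limma adjusted p of Tfam was 0.0503 in HBEGF P1 against fresh P1, 0.0506 in MD against fresh P1 and 0.0652 in withdrawn P7 against HBEGF P7, so these 3 calls ended.

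**Figure D3:**
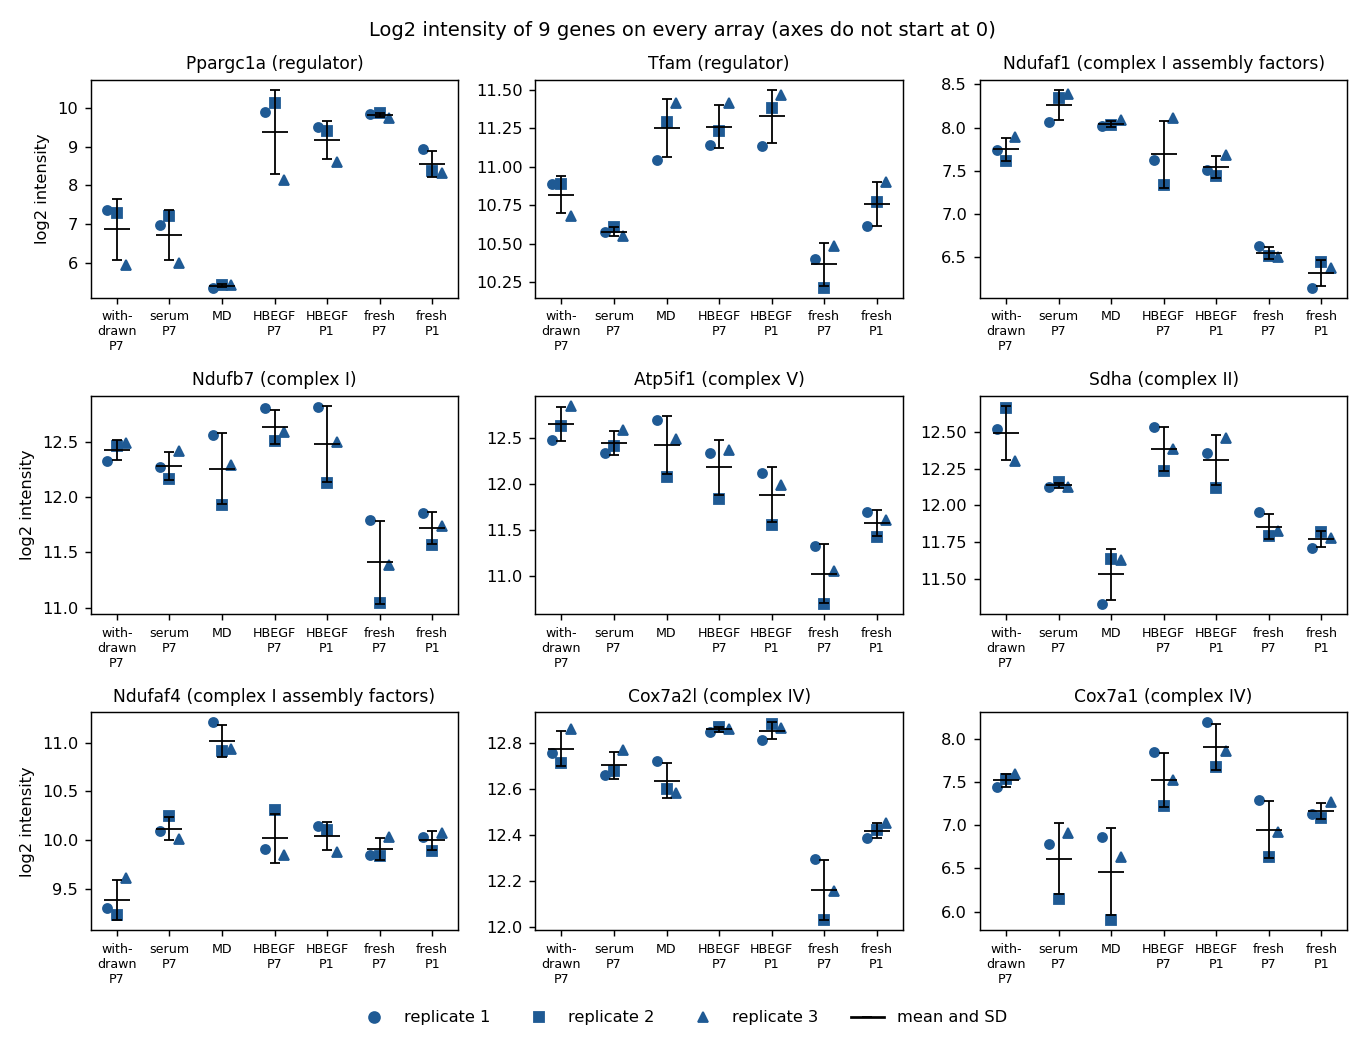
Log2 intensity (y axes, not starting at 0) of 9 genes on every array of the 7 groups (x axis), with points shaped by replicate number and bars for the mean and SD of 3 arrays. Ppargc1a is low in the 3 groups that saw serum. Tfam is lowest in fresh P7 cells, while Ndufaf1, Ndufb7 and Atp5if1 have their lowest means in the fresh P7 and fresh P1 groups.

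Promoter windows of 250 bases before to 50 after the gene start (RefSeq, build GRCr8) were found for 80 of the 89 genes. They are shown for Ppargc1a and Tfam, and for Ndufaf1, Ndufb7, Atp5if1 and Sdha, which carry results described further on. Capitals mark matches, on either strand, to motifs of factors known to act at nuclear genes of mitochondrial proteins: NRF1, the ETS family with GABP (CCGGAAG), YY1 (AAGATGGC), the cAMP response element CRE (TGACGTCA) and SP factors (GGGCGGG).
Ppargc1a, chr14:63634058-63634357, plus strand: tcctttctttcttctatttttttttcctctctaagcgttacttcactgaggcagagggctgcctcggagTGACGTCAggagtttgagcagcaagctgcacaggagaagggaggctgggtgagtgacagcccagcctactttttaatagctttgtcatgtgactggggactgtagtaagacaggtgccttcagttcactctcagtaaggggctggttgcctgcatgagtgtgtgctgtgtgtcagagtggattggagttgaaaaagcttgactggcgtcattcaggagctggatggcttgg
Tfam, chr20:17355123-17355422, plus strand: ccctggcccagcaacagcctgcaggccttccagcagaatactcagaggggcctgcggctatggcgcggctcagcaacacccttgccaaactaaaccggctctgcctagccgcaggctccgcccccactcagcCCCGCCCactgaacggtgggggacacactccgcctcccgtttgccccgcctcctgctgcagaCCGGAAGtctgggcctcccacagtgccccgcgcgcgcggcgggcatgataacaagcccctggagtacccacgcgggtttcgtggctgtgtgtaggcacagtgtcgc
Ndufaf1, chr3:127103971-127104270, minus strand: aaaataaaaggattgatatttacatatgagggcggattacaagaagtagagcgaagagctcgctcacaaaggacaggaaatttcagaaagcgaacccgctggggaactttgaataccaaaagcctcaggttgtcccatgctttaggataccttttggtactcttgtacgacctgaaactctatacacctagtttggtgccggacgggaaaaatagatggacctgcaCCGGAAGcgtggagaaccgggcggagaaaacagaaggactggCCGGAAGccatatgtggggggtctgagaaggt
Ndufb7, chr19:41477242-41477541, minus strand: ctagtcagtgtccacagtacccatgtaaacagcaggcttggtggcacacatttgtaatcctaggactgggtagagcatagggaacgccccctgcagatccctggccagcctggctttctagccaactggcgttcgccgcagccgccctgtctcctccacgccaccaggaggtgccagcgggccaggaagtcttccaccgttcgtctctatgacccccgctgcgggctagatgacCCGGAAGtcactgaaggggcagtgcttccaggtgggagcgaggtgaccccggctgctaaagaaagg
Atp5if1, chr5:150026628-150026927, minus strand: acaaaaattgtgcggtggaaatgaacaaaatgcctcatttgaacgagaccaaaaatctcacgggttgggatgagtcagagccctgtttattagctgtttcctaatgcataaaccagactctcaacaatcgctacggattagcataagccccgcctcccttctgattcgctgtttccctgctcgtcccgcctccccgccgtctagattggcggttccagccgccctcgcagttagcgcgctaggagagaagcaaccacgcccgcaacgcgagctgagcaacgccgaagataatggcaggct
Sdha, chr1:30764303-30764602, plus strand: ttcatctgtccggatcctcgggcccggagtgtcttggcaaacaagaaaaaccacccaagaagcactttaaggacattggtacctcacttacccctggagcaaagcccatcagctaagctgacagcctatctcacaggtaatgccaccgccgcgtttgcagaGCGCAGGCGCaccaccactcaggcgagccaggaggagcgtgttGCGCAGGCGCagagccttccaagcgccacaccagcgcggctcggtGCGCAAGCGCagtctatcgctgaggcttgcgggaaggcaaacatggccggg

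The Ppargc1a window held 1 CRE match and none of the others. The Tfam window held 1 ETS and 1 SP match, the Ndufaf1 window 2 ETS matches, the Ndufb7 window 1 ETS match and the Sdha window 3 NRF1 matches, and the Atp5if1 window held none. Over the 80 windows, an NRF1 match was present in 15 (18.8%), against 4.25% of all 33469 windows in the promoter set. That set was not limited to genes measured on the arrays. An ETS match was present in 23 (28.8%, against 8.75%), a YY1 match in 17 (21.2%, against 3.17%), a CRE match in 4 (5%, against 1.83%) and an SP match in 19 (23.8%, against 22.7%). No motif is contained in another, matches of different motifs may overlap, and 26 windows held none of the 5 motifs. Among the 39 windows of genes called higher in HBEGF P7 cultures than in fresh P7 cells, 15 held an ETS match (38.5%), 11 a YY1 match (28.2%), 8 an NRF1 match (20.5%), 3 a CRE match (7.69%) and 8 an SP match (20.5%). Among the 41 windows of the genes not called there, 8 held an ETS match (19.5%), 6 a YY1 match (14.6%), 7 an NRF1 match (17.1%), 1 a CRE match (2.44%) and 11 an SP match (26.8%). A match is a description of the letters and does not show binding.

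Many respiratory chain genes were higher in HBEGF P7 cultures than in fresh P7 cells. The groups differ by 7 days in culture as well as by HBEGF, which cannot be told apart. In HBEGF P7 cultures against fresh P7 cells, 45 of the 89 genes rose (50.6%) and 0 fell, where 16.5% of all genes rose and 12% fell. At an unadjusted p under 0.05, 56 rose and 0 fell. Among the 63 bright members 37 rose (58.7%), against 30.3% of all genes at a mean level of at least 12. The median change was 0.48, against 0.07 over all genes and 0.20 over bright genes, and 85 of 89 changes were positive. The arrays of the 2 groups did not overlap for 47 genes, all higher, while 21.7% of all genes were higher without overlap.

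Each complex held genes that rose. Complex I had 19 of 36 genes called higher (median change 0.52), its assembly factors 3 of 6 (0.59), complex II 4 of 4 (0.50), complex III 4 of 8 (0.39), complex IV 6 of 17 (0.29) and complex V 8 of 16 (0.51). The size was modest: 3 genes rose by at least 1 on the log2 scale. Without the fresh P7 replicate 2 array the count of genes called higher was 26, and without the HBEGF P7 replicate 1 array it was 28. Without the replicate 2 arrays of the fresh, HBEGF and MD groups together it was 44. A fit on these 2 groups alone called 14. Markers of cell types moved with this comparison too: 3 of 8 endothelial and mural and 2 of 8 microglia markers fell, 2 of 8 fibroblast, 1 of 8 neuron and 1 of 7 oligodendrocyte lineage markers rose, and of 8 astrocyte markers 1 rose and 3 fell. The summed intensity of the endothelial and mural markers was 720.4 to 938.7 in HBEGF P7 cultures against 1440 to 1869 in fresh P7 cells, and the part of other cells was not tested.

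Ndufb7, a complex I accessory subunit, had 12.80, 12.50 and 12.59 in HBEGF P7 cultures, against 11.79, 11.04 and 11.39 in fresh P7 cells. The groups did not overlap, and the change was 1.22 ± 0.20 (2.34-fold, limma adjusted p = 0.000201). Atp5if1, the inhibitor of ATP hydrolysis by complex V, had 12.34, 11.84 and 12.38 in HBEGF P7 cultures, against 11.34, 10.70 and 11.05 in fresh P7 cells. It rose by 1.16 ± 0.20 (2.23-fold, limma adjusted p = 0.00042), again without overlap. Its other probe sets, dim at mean levels of 5.64 and 5.08, changed by 0.22 and 0.20 and were not called (limma adjusted p = 0.393 and 0.432).

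Ndufaf1, an assembly factor of complex I, lay below the median of all values in fresh cells and rose in HBEGF and MD cultures against fresh cells. It had 7.62, 7.34 and 8.11 in HBEGF P7 cultures against 6.62, 6.50 and 6.50 in fresh P7 cells, a rise in measured signal of 1.15 ± 0.15 (limma adjusted p = 3.91e-05). The fresh-cell signal cannot be told from background, so no fold is given for Ndufaf1 here or at P1. Cox7a2l, which helps to join complexes III and IV into a supercomplex, had 12.85, 12.87 and 12.86 in HBEGF P7 cultures and 12.30, 12.03 and 12.16 in fresh P7 cells. Its rise of 0.70 ± 0.08 had the lowest adjusted p of all members in this comparison (1.28e-05, limma). Other rises were those of Ndufa8 (0.92 ± 0.20), Uqcr11 of complex III (0.89 ± 0.18), the iron-sulfur subunit Ndufs7 (0.81 ± 0.12), Ndufs3 (0.75 ± 0.14) and Atp5f1d of the ATP synthase stalk (0.69 ± 0.12), with limma adjusted p between 0.000119 and 0.00221. These stayed called whichever 1 array of the 2 groups compared was left out.

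The 4 genes of complex II, the succinate dehydrogenase that is also an enzyme of the tricarboxylic acid cycle, rose together. Sdha, the flavoprotein, had 12.53, 12.23 and 12.38 in HBEGF P7 cultures against 11.95, 11.79 and 11.83 in fresh P7 cells (0.53 ± 0.12, limma adjusted p = 0.00377). Sdhb, the iron-sulfur subunit, had 13.32, 12.78 and 13.34 in HBEGF P7 cultures against 12.44, 12.47 and 12.41 in fresh P7 cells (0.71 ± 0.16, limma adjusted p = 0.00323). The membrane anchors Sdhc (0.48 ± 0.16, limma adjusted p = 0.044) and Sdhd (0.46 ± 0.13, adjusted p = 0.0155) were called too, with no overlap of arrays. The Sdhc call ended with any of 5 single arrays left out (adjusted p up to 0.176) and the Sdhd call with 1 (adjusted p 0.0727). A further Sdhd probe set, at a mean level of 12.04, changed by 0.53 and was not called (limma adjusted p = 0.058).

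P1 cells changed in the same direction by less in the median. In HBEGF P1 cultures against fresh P1 cells, 17 of 89 genes rose and 1 fell, where 15% of all genes rose and 9.06% fell. In this fit, which does not use the replicate number, the share that rose was near the background. The median change was 0.24, against 0.03 over all genes and 0.07 over bright genes, and 77 of 89 changes were positive. Of the 17 genes, 16 also rose in P7 cells, which is 94.1% of the P1 calls and 35.6% of the P7 calls, and the other was Cox7a1. With the replicate number as a block, fitted as 1 effect over all 7 groups, 27 rose, and the share of all genes under that fit was not counted. Leaving out HBEGF P1 replicate 1 left 10 calls, and leaving out either HBEGF P1 replicate 3 or fresh P1 replicate 1 left 11. The number was 27 both when HBEGF P1 replicate 2 was dropped and when all 5 replicate 2 arrays were. Complex I had 8 genes called higher, and 14 with the block. Of the markers, 2 of 7 of the oligodendrocyte lineage rose, 3 of 8 endothelial and mural ones fell, and of 8 astrocyte markers 3 rose and 2 fell. Their part was not tested.

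Ndufaf1 had the largest rise, with 7.51, 7.44 and 7.68 in HBEGF P1 cultures against 6.14, 6.44 and 6.37 in fresh P1 cells (1.23 ± 0.15, limma adjusted p = 2.51e-05). Ndufs7 had 12.53, 12.29 and 12.49 in HBEGF P1 cultures against 11.56, 11.62 and 11.78 in fresh P1 cells (0.79 ± 0.12, limma adjusted p = 0.000203). Both groups were apart on every array. Sdha rose by 0.54 ± 0.12 (limma adjusted p = 0.00349) and Cox7a2l by 0.43 ± 0.08 (adjusted p = 0.00129). The 1 fall was that of Cox4i2, one of the 5 dim genes (-0.56 ± 0.16, limma adjusted p = 0.0185), and it ended with any of 3 arrays left out and without the 5 replicate 2 arrays.

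Whether the change in culture was larger at P7 than at P1 was tested directly, as the difference between the 2 changes. No member was called (0 of 89, with 0.19% of all genes higher and 0.872% lower). At an unadjusted limma p under 0.05, 5 were higher and 0 lower, with no share of all genes to set beside them. The difference was positive for 81 of 89 genes, with a median of 0.20, against 0.02 over all genes. The 89 genes shifted together between arrays, so 81 does not count independent changes. Their mean deviation ran from -0.472 to -0.102 over the fresh P7 arrays alone. Genes at a mean level of at least 12 had a median culture change of 0.20 at P7 and 0.07 at P1. Age alone gave no call among the members either. Fresh P7 against fresh P1 cells had 0 higher and 0 lower by limma (3.47% and 0.879% of all genes), with 1 and 10 at an unadjusted p under 0.05. The median change was -0.16, against -0.02 over all genes and -0.13 over genes at a mean level of at least 12. Of the 89 changes, 74 were negative. HBEGF P7 against HBEGF P1 cultures had 0 and 0 (1.02% and 0.732% of all genes), with 2 and 0 at an unadjusted p under 0.05. The median there was 0.06, against 0 over all genes and -0.01 over genes at a mean level of at least 12. Between HBEGF P7 and HBEGF P1 cultures 3 of 8 fibroblast markers were higher and 1 of 7 oligodendrocyte lineage markers lower. Between fresh P7 and fresh P1 cells 3 of 8 astrocyte and 2 of 8 microglia markers were higher and 1 of 8 endothelial and mural markers lower. Of 8 neuron markers 0 were called in either, with a summed intensity of 738.9 to 8396 in HBEGF P7 and 4368 to 8580 in HBEGF P1 cultures, and 866.3 to 1302 in fresh P7 and 1784 to 2623 in fresh P1 cells. The part of these cells was not tested.

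**Figure D4:**
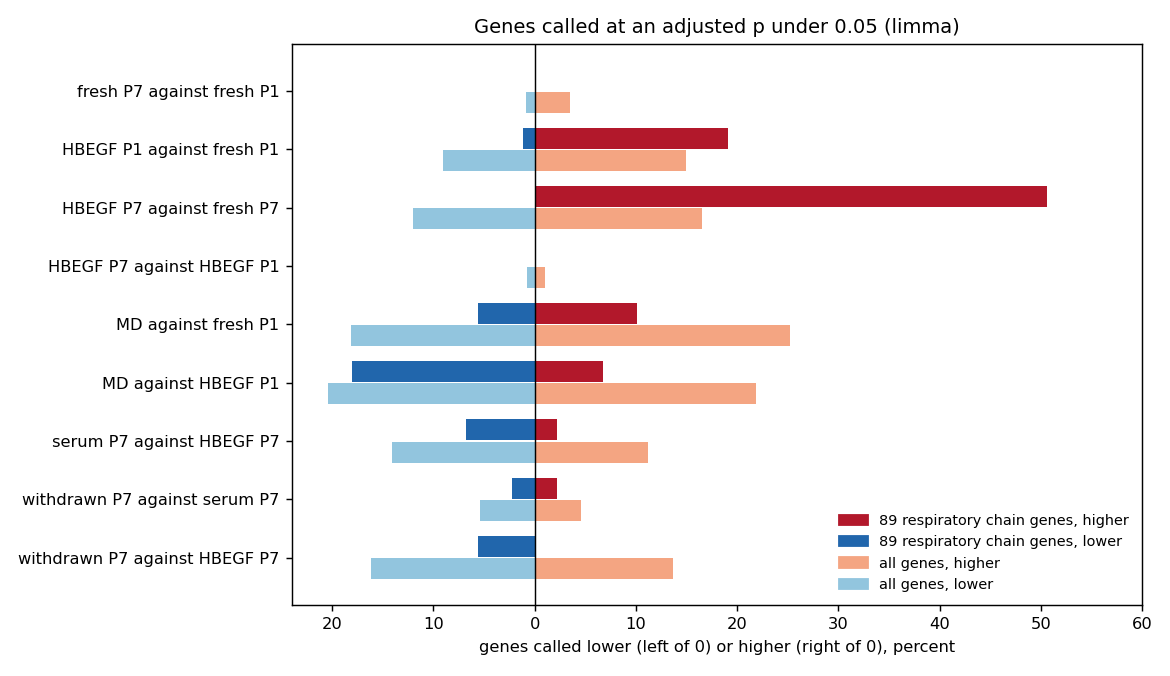
Percent of the 89 respiratory chain genes (dark bars) and of all genes (light bars) called higher (right of 0) or lower (left of 0) in each comparison (y axis). The dark bar of HBEGF P7 against fresh P7 reaches 50.6% where the light bar reaches 16.5%, and in the MD, serum and withdrawal comparisons the dark bars are shorter than the light ones.

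MD cultures differed from fresh P1 cells in 14 of the respiratory chain genes. Against fresh P1 cells, 9 of 89 genes rose (10.1%) and 5 fell (5.62%), where 25.2% of all genes rose and 18.1% fell, and the median change was 0.09 against 0.11 over all genes. With the replicate block over all 7 groups, 18 rose and 7 fell. With each array centred on its median, 16 rose and 3 fell. The array medians of the MD cultures were 0.09 lower on the log2 scale than those of fresh P1 cells and 0.11 lower than those of HBEGF P1 cultures. Without the 5 replicate 2 arrays 17 rose and 3 fell. Without MD replicate 2 the counts were 15 and 3, and 3 fell also without fresh P1 replicate 1 or 3.

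Assembly factors led the rises in MD cultures. Ndufaf1 had 8.01, 8.03 and 8.08 in MD cultures against 6.14, 6.44 and 6.37 in fresh P1 cells (1.72 ± 0.15 in measured signal, limma adjusted p = 1.79e-07). Ndufaf4 had 11.21, 10.91 and 10.93 in MD cultures, above every other array of the study, and 10.03, 9.89 and 10.07 in fresh P1 cells (1.02 ± 0.14, limma adjusted p = 1.69e-05). Atp5if1 rose by 0.85 ± 0.20 (limma adjusted p = 0.00284) and Cyc1, the haem protein of complex III, by 0.46 ± 0.12 (adjusted p = 0.00695). Cox6b2, best known as the testis form of a complex IV subunit, had 9.28, 8.37 and 8.65 in MD cultures against 10.40, 9.94 and 10.28 in fresh P1 cells (-1.44 ± 0.32, limma adjusted p = 0.00174). Ndufb4 was lower by -0.55 ± 0.15 (limma adjusted p = 0.00717).

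In MD against HBEGF P1 cultures, 6 of 89 genes rose (6.74%) and 16 fell (18%), where 21.9% of all genes rose and 20.4% fell. In this fit, which does not use the replicate number, the share that fell was near the background. With the replicate block 7 rose and 23 fell, and the share of all genes under that fit was not counted. The median change was -0.16 against 0.09 over all genes. Without the 5 replicate 2 arrays 4 rose and 13 fell. Complex I had 1 gene higher and 6 lower (1 and 10 with the replicate block over all groups), complex II 0 and 2, complex III 0 and 2, complex IV 2 and 3, complex V 1 and 2, and the assembly factors 2 and 0. Dropping HBEGF P1 replicate 3 left 8 lower genes, and dropping HBEGF P1 replicate 1 left 10. Dropping HBEGF P1 replicate 2 left 2 higher genes, and dropping MD replicate 3 left 3.

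Sdha had 11.33, 11.63 and 11.63 in MD cultures against 12.35, 12.12 and 12.46 in HBEGF P1 cultures. The groups did not overlap, and the fall was 1.72-fold (-0.78 ± 0.12, limma adjusted p = 7.04e-05). Ndufs7 fell (-0.70 ± 0.12, limma adjusted p = 0.000256), as did Ndufs3 (-0.54 ± 0.14, adjusted p = 0.00576) and Cox8a of complex IV (-0.48 ± 0.10, adjusted p = 0.00174). Cox7a1, the heart and skeletal muscle form of a complex IV subunit, had 6.86, 5.90 and 6.63 in MD cultures against 8.19, 7.67 and 7.86 in HBEGF P1 cultures (-1.44 ± 0.25, limma adjusted p = 0.000193). The MD and serum P7 means of Cox7a1 lay under the median of all values, where a signal cannot be told from background. Ndufaf4 went the other way, with 11.21, 10.91 and 10.93 in MD cultures against 10.15, 10.11 and 9.88 in HBEGF P1 cultures (0.97 ± 0.14, limma adjusted p = 3.31e-05).

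Other lists of mitochondrial genes were counted in the same comparisons, to be read against the 25.2% of all genes higher and 18.1% lower in MD against fresh P1, and 21.9% and 20.4% in MD against HBEGF P1. The lists were chosen with earlier results of these data known, and no test set one list against another. Of 73 mitochondrial ribosome proteins, which make the subunits encoded in mitochondrial DNA, 48 rose (65.8%) and 0 fell in MD cultures against fresh P1 cells, with a median change of 0.67. Without the 5 replicate 2 arrays 57 rose, and leaving out 1 array gave 34 to 57. In MD against HBEGF P1 cultures 20 rose (27.4%) and 2 fell, with a median of 0.29. That count of rises was 32 with the replicate block, 27 without the 5 replicate 2 arrays, 9 without HBEGF P1 replicate 2, 10 without MD replicate 1 and 11 without MD replicate 3. The largest rises were those of Mrps15 (2.34 ± 0.27) and Mrps18b (2.00 ± 0.16) against fresh P1 cells. Of 13 import and chaperone genes, 11 rose (84.6%) and 0 fell against fresh P1 cells, led by the inner membrane import subunit Timm17a (1.61) and the protease subunit Clpp (1.11), and 5 rose (38.5%) and 0 fell against HBEGF P1 cultures.

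Of the assembly genes of complexes II, III and V, 7 of 13 were higher (53.8%) and 0 were lower in MD cultures against fresh P1 cells. Sdhaf2, which adds the flavin to Sdha, rose by 2.04 ± 0.17 (limma adjusted p = 6.42e-08), and Bcs1l, which inserts the Rieske protein into complex III, by 1.45 ± 0.12 (adjusted p = 7e-08). Of 15 complex IV assembly genes 3 rose (20%) and 2 fell (13.3%), below the shares of all genes, and the copper chaperone Cox17 rose by 1.81 (limma adjusted p = 5.81e-05). Of 14 tricarboxylic acid cycle genes 3 rose (21.4%) and 2 fell (14.3%), also below them, and Idh2, the mitochondrial NADP-dependent isocitrate dehydrogenase, fell by 0.95 (limma adjusted p = 2.34e-06). Against HBEGF P1 cultures 3 cycle genes rose (21.4%) and 5 fell (35.7%; 2 without HBEGF P1 replicate 1 or 3, and 3 without MD replicate 1), and Idh2 was lower by -1.18 (limma adjusted p = 3.23e-07).

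**Figure D5:**
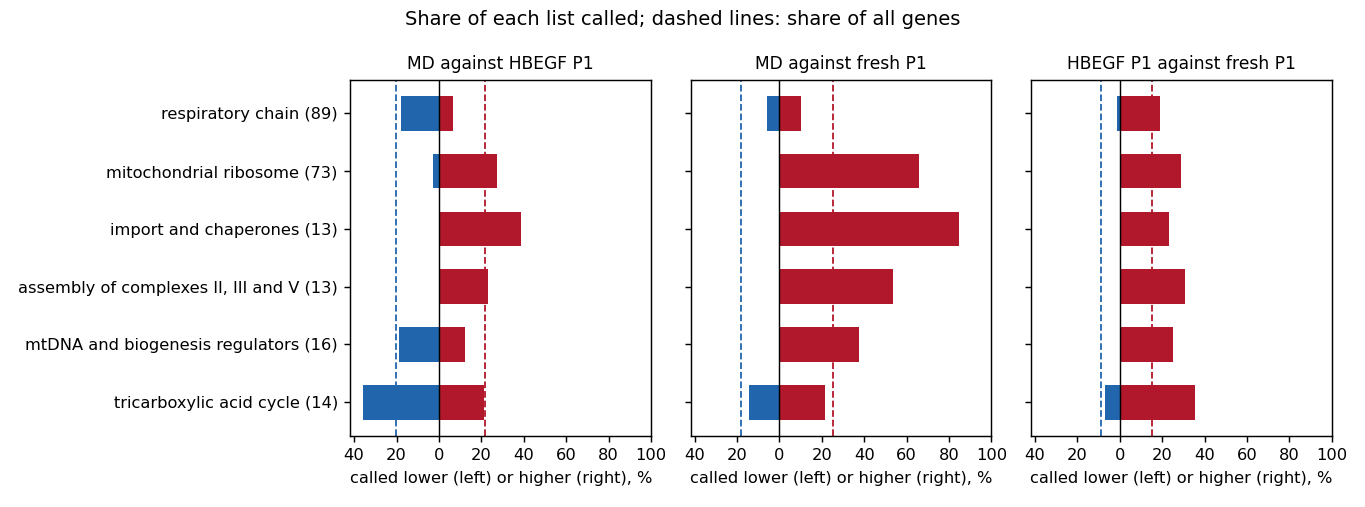
Percent of each list called higher (right, red) or lower (left, blue) in 3 comparisons of P1 cells, with the number of measured genes in brackets and dashed lines at the percent of all genes. In MD against fresh P1, 48 of 73 mitochondrial ribosome genes and 11 of 13 import and chaperone genes rose, while 9 of 89 respiratory chain genes did.

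The lists also held rises in HBEGF cultures. Against fresh P7 cells, HBEGF P7 cultures had 43 of 73 mitochondrial ribosome genes higher (58.9%) and 0 lower, with a median change of 0.66, where 16.5% of all genes rose. The count was 23 without fresh P7 replicate 2, 27 without HBEGF P7 replicate 1, 41 without the 5 replicate 2 arrays and 20 in a fit on these 2 groups alone. Of 13 import and chaperone genes 7 rose (53.8%) and 0 fell, but 3 did without fresh P7 replicate 1 or without the 5 arrays, 4 without HBEGF P7 replicate 2, and 0 in the fit on these 2 groups. Of 14 cycle genes 6 rose (42.9%) and 1 fell, with 4 higher in 2 of the single-array omissions and 3 in the fit on these 2 groups. Mrps15 rose by 1.97 and Sdhaf2 by 1.71 ± 0.17 (limma adjusted p = 1.37e-06 for Sdhaf2). The 1 cycle gene that fell was Ogdh (-0.41, limma adjusted p = 0.0116). In HBEGF P1 cultures against fresh P1 cells, 21 ribosome genes rose (28.8%, where 15% of all genes did) and 0 fell. The count was 31 with the block, 9 without HBEGF P1 replicate 1 and 10 without fresh P1 replicate 2. Sdhaf2 rose by 1.76 ± 0.17 (limma adjusted p = 1.25e-06).

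Few of the 89 genes differed between serum P7 and HBEGF P7 cultures. These groups differ in serum and in HBEGF, which cannot be told apart. In serum P7 against HBEGF P7 cultures 2 rose and 6 fell, where 11.2% of all genes rose and 14.1% fell, and the median change was -0.09 against 0 over all genes. The 6 were Ppargc1a, Tfam, Cox7a1, Ndufaf7, Ndufs3 and Ndufs7. Without the 5 replicate 2 arrays 13 fell. Ndufs3 had 11.62, 11.60 and 11.72 in serum P7 cultures against 12.46, 12.15 and 12.38 in HBEGF P7 cultures (-0.68 ± 0.14, limma adjusted p = 0.00229). Ndufs7 had 11.91, 11.86 and 11.95 in serum P7 cultures against 12.66, 12.43 and 12.42 in HBEGF P7 cultures (-0.60 ± 0.12, limma adjusted p = 0.00236).

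Ndufaf7, a methyltransferase that acts in complex I assembly, had 8.71, 8.80 and 8.46 in serum P7 cultures against 9.38, 9.25 and 9.80 in HBEGF P7 cultures (-0.82 ± 0.19, limma adjusted p = 0.00472). Cox7a1 had 6.78, 6.15 and 6.91 in serum P7 cultures against 7.84, 7.21 and 7.52 in HBEGF P7 cultures (-0.91 ± 0.25, limma adjusted p = 0.014), a call that ended with either of 2 arrays left out. The 2 rises, of Ndufaf1 (0.58 ± 0.15) and the dim Cox4i2 (0.52 ± 0.16), each ended with single arrays left out and without the 5 replicate 2 arrays, and 0 were called without serum P7 replicate 2 and 1 without serum P7 replicate 1 or HBEGF P7 replicate 1. Of the biogenesis regulators, Nrf1 (-0.59, limma adjusted p = 0.00401), Gabpb1 (-0.62, adjusted p = 0.0006) had the largest falls among the 3 of 16 that fell. The uncoupling protein gene Ucp2 was higher by 1.95 ± 0.31 (limma adjusted p = 0.000291), over an HBEGF P7 level of 6.87 that lies under the median of all values.

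Withdrawn P7 cultures differed from serum P7 cultures by 7 further days as well as by the change of medium. In withdrawn P7 against serum P7 cultures 2 rose and 2 fell, where 4.61% of all genes rose and 5.36% fell, and the median change was 0.07. Ndufaf4 had 9.30, 9.23 and 9.62 in withdrawn P7 cultures against 10.10, 10.25 and 10.01 in serum P7 cultures (-0.73 ± 0.14, limma adjusted p = 0.00428). It was the 1 call that survived leaving out each array of these 2 groups. Cox7a1 had 7.44, 7.53 and 7.59 in withdrawn P7 cultures against 6.78, 6.15 and 6.91 in serum P7 cultures (0.91 ± 0.25, limma adjusted p = 0.0324). The calls of Cox7a1 and Ndufs7 (0.42 ± 0.12) ended with any of 5 single arrays left out, and that of Ndufaf1 (-0.52 ± 0.15) with any of 6. Sdha, at 12.52, 12.66 and 12.30 in withdrawn P7 and 12.13, 12.16 and 12.13 in serum P7 cultures, differed by 0.36 ± 0.12 and was not called (limma adjusted p = 0.0819). Microglia markers moved with this comparison: 4 of 8 rose, with a mean level of 6.46 to 7.34 in withdrawn P7 and 5.48 to 5.69 in serum P7 cultures, and their part was not tested.

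Set against HBEGF P7 cultures that never saw serum, withdrawn P7 cultures had 0 genes higher and 5 lower, where 13.7% of all genes rose and 16.2% fell, and the median change was -0.04. At an unadjusted p under 0.05, 5 were higher and 8 lower by limma. The 5 were Ppargc1a, Tfam, Ndufaf7, Ndufaf4 and Ndufb2, and 3 of them were called without withdrawn P7 replicate 3. Ndufaf4 was lower by -0.64 ± 0.14 (limma adjusted p = 0.00337), and the other 3 changes lay between -0.71 and -0.44. Of the 16 biogenesis regulators 0 rose and 6 fell, with Pprc1 (-0.83) and Nrf1 (-0.74, limma adjusted p = 0.000806) the largest falls. The count was 3 without HBEGF P7 replicate 2, 4 without HBEGF P7 replicate 1 or any withdrawn P7 array, and 2 in a fit on these 2 groups alone. Of the markers, 5 of 8 microglia, 6 of 8 fibroblast and 4 of 8 endothelial and mural ones rose, and their part was not tested. Ucp2 was higher by 1.92 ± 0.31 (limma adjusted p = 0.000353).

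Large changes were rare among these genes. Asking for a log2 change of at least 1 beside the adjusted p, 3 genes rose and 0 fell in HBEGF P7 cultures against fresh P7 cells (4.78% and 5.51% of all genes), and 1 rose and 0 fell in HBEGF P1 cultures against fresh P1 cells (4.38% and 4.49%). In MD cultures 2 rose and 2 fell against fresh P1 cells (10.1% and 9.43% of all genes), and 0 rose and 2 fell against HBEGF P1 cultures (8.81% and 9.57%). Ppargc1a was the 1 gene that fell, and 0 rose, in serum P7 cultures (4.83% higher and 4.47% lower over all genes) and in withdrawn P7 cultures (6.29% and 5.42%) against HBEGF P7 cultures. Withdrawn against serum P7 cultures had 0 in either direction (2.24% and 2.26% of all genes), where 6 genes were higher and 3 lower by limma at an unadjusted p under 0.05 and any size.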

How the data were processed

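RNA of 21 samples was labelled with the 3' IVT Express kit and hybridised to Affymetrix rat expression arrays, per the labels' protocols. The authors' deposited values are intensity per probe set, and the submitters' processing notes name RMA as the method. The sources used here give neither its version nor a chip definition file. They ran from 10.02 to 37801 with array medians of 128 to 146, so they were taken as linear, and log2 was computed. Of 31042 probe sets, 20826 carried 1 symbol, 436 several and 9780 none in the platform annotation. Groups follow the sample titles, and 0 columns were left unmapped.

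limma 3.58.1 (R 4.3.3) fitted 7 group means to all probe sets with no covariate (14 residual and 2.89 prior degrees of freedom), with Benjamini-Hochberg adjustment over all probe sets in each of 10 comparisons. The code was tested on simulated data. The number of arrays, 3 a group, limits the precision: the median standard error of a change was 0.16, and an exact permutation test could not go below p = 0.1. P-values measure the spread between these samples only, which may be partly technical.

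Replicate numbers are shared between groups. The deviations of same-numbered arrays from their group means correlated above 0.1 in all 3 pairs for HBEGF P1 with fresh P1 (0.249 to 0.511), HBEGF P7 with HBEGF P1 (0.457 to 0.567), MD with fresh P1 (0.233 to 0.389), MD with HBEGF P1 (0.372 to 0.6) and withdrawn with serum P7 (0.245 to 0.533), so the number was taken to pair these. It was not for the other 4 comparisons, whose lowest correlations were -0.141 to -0.043. The pairing comes from this check and not from the labels. The main fit does not use it, and the block is 1 effect over all 7 groups, including those whose numbers do not pair.

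The members, the gene lists, the markers and the alternatives were chosen with earlier results of these data known. Members are named where they are called, do not overlap between groups and are among the 5 that changed most in either direction of a comparison. Named as well are the 15 with the widest and 5 with the narrowest range of group means, a fixed set (both regulators, Cyc1, the Sdh genes and subunits with tissue forms), and in other lists the 2 largest called changes in each direction. Alternatives were a replicate block, fits on the groups compared alone, median centring, an intensity trend, brighter probe sets, the mean of a gene's probe sets, a log2 change of at least 1 and leaving out arrays. For named genes, the arrays left out in turn were the 6 of the 2 groups compared, and not all 21. Promoter windows were searched for 5 motifs on both strands.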

Additional observations from a re-analysis of the deposited data

How the results depend on the processing

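Every alternative moved some count of called genes, as follows. Asking for a log2 change of at least 1 left 3 genes higher in HBEGF P7 against fresh P7, 1 higher and 0 lower in HBEGF P1 against fresh P1, 2 and 2 in MD against fresh P1, 0 and 2 in MD against HBEGF P1, 0 and 1 in serum P7 against HBEGF P7, 0 and 0 in withdrawn P7 against serum P7, and 0 and 1 in withdrawn P7 against HBEGF P7. Fitting only the groups compared, with fewer arrays, gave 14 higher in HBEGF P7 against fresh P7, 1 higher in fresh P7 against fresh P1, 3 lower in MD against fresh P1, 0 higher in serum P7 against HBEGF P7, 0 higher in withdrawn P7 against serum P7 and 1 lower in withdrawn P7 against HBEGF P7.

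The replicate block gave 1 higher and 1 lower in fresh P7 against fresh P1, 27 higher in HBEGF P1 against fresh P1, 18 higher in MD against fresh P1, 4 higher and 10 lower in serum P7 against HBEGF P7, and 2 higher and 8 lower in withdrawn P7 against HBEGF P7. For the comparisons whose numbers pair, it changed no other count by over 1.5 times. Over all groups, same-number deviations correlated at a median of 0.057 in 63 pairs and other-number ones at -0.018. Median centring gave 16 higher and 3 lower in MD against fresh P1, 1 higher in withdrawn P7 against serum P7 and 1 higher in withdrawn P7 against HBEGF P7. Keeping the probe sets brighter than the median gave 0 lower in HBEGF P1 against fresh P1 and 1 higher in withdrawn P7 against serum P7. The mean of all probe sets of a gene gave 14 higher in MD against fresh P1, 4 higher in serum P7 against HBEGF P7 and 2 higher in withdrawn P7 against HBEGF P7. An intensity trend gave 1 lower in withdrawn P7 against serum P7.

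Leaving out the replicate 2 arrays of the fresh, HBEGF and MD groups, chosen after seeing the data, gave 27 higher and 0 lower in HBEGF P1 against fresh P1, 17 and 3 in MD against fresh P1, 13 lower in serum P7 against HBEGF P7 and 1 higher in withdrawn P7 against HBEGF P7. Leaving out 1 array at a time gave 26 to 52 higher in HBEGF P7 against fresh P7, 10 to 27 higher and 0 to 1 lower in HBEGF P1 against fresh P1, 7 to 15 higher and 3 to 6 lower in MD against fresh P1, 2 to 7 higher and 8 to 23 lower in MD against HBEGF P1, 0 to 2 higher and 5 to 9 lower in serum P7 against HBEGF P7, 0 to 2 higher and 1 to 1 lower in withdrawn P7 against serum P7, and 0 to 1 higher and 3 to 4 lower in withdrawn P7 against HBEGF P7. Of 84 calls of named genes, 36 did not survive every single-array omission. The causes were not tested.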

Other observations

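A further 9 probe sets carried several symbols of which at least 1 met the rule, so no gene could be named from them. In HBEGF P7 cultures against fresh P7 cells, 5 of the 9 were higher and 0 lower, with a median change of 0.44. In MD cultures against fresh P1 cells 5 were higher and 0 lower, with a median of 0.34, and in HBEGF P1 cultures against fresh P1 cells 1 was higher and 0 lower. In all, 10 members had more than 1 probe set of their own. They gave 18 calls over the comparisons, and in 0 of these was another probe set of the gene called the other way.

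Cox5a of complex IV, at a mean level of 7.97, had its highest group mean in serum P7 cultures and its lowest in HBEGF P1 cultures. Ndufv3 of complex I had its highest in serum P7 cultures and its lowest in fresh P7 cells. Of 14 genes of mitochondrial carriers and outer membrane channels, 7 rose (50%) and 1 fell (7.14%) in MD cultures against fresh P1 cells, where 25.2% of all genes rose and 18.1% fell. Without fresh P1 replicate 1 the count of rises was 4. Ucp2 was among them (1.43 ± 0.31, limma adjusted p = 0.00123), over a fresh P1 level of 6.70 that lies under the median of all values.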
